A study of Mus musculus with 15 samples.

Results

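The genes described are Abcc1, Abcc2, Abcc3, Abcc4, Abcc5, Abcc6 and Abcc9, 7 members of the ATP-binding cassette subfamily C, out of 22180 genes measured in mouse liver. They were taken by symbol from the array's probe table, where each has 1 transcript cluster. The list was chosen by their differences between the 3 groups of these same mice, and was built around Abcc4. The levels and differences of these 7 genes are therefore given as a description, and no test of them is offered as evidence. The study hybridised liver RNA of 15 mice to as many GeneChip Mouse Gene 2.0 ST arrays and gives log2 signals.

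All 15 mice were males of the genotype ApoE3L.CETP (ApoE*3Leiden.CETP), transgenic animals with a human-like lipoprotein profile, whose age is listed as 9 to 12 weeks. All were fed a 60% fat, 0.25% cholesterol diet during the 6 weeks before an operation, and all were killed 20 days after it. RYGB mice (6 arrays) had Roux-en-Y gastric bypass, in which food is rerouted past most of the stomach and the upper small intestine. Sham AL mice (5 arrays) had sham surgery and ate ad libitum, and BWm mice (4 arrays) had sham surgery and were held at the body weight of the RYGB mice. The same cohorts were given a glucose tolerance test on day 13 and an insulin sensitivity test on day 19 after surgery, and were housed singly. The sources used here do not name the transgenes' promoters. Every group carries the transgenes and the diet, so nothing was measured in mice without them.

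ABCC proteins are membrane pumps that burn ATP to push organic anions out of cells, chiefly glutathione, glucuronide and sulfate conjugates. In the hepatocyte Abcc2 sits on the canalicular face and empties conjugates into bile, whereas Abcc3 and Abcc4 sit on the sinusoidal face and return conjugates and bile acids to blood. Abcc4 is known as a low-abundance protein of healthy liver whose expression increases under cholestasis and under activators of the transcription factor NRF2. Abcc6 lets hepatocytes release ATP, from which the mineralisation inhibitor pyrophosphate is formed, and Abcc9 is no exporter but the sulfonylurea receptor subunit of ATP-sensitive potassium channels.

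Promoter sequences are shown for Abcc4 and Abcc2 because NRF2 acts through the antioxidant response element, whose core was searched as TGACNNNGC on both strands (GCNNNGTCA on the other). RefSeq windows of the build GRCm38.p6, the 250 bases before an annotated transcript start, were matched for 4 of the 7 genes (Abcc2, Abcc4, Abcc5 and Abcc9), and Abcc1, Abcc3 and Abcc6 had none. Abcc4 lies on the minus strand of chromosome 14 and has 2 annotated starts with a window, at chr14:118706220-118706469 and chr14:118676932-118677181. The Abcc2 window is chr19:43782058-43782307 on the plus strand. Each sequence runs 5′ to 3′ on the gene's strand, ends at the base before the start, and carries the core match in capitals.
Abcc4 first start: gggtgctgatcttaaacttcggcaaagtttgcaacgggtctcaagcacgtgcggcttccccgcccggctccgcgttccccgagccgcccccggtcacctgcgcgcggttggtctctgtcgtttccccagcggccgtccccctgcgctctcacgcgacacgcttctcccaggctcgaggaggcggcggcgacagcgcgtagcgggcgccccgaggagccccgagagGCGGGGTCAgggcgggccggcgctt
Abcc4 second start: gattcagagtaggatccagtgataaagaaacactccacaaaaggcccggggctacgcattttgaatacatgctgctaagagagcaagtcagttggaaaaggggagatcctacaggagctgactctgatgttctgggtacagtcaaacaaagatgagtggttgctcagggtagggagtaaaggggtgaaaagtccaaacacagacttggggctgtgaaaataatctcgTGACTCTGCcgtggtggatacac
Abcc2: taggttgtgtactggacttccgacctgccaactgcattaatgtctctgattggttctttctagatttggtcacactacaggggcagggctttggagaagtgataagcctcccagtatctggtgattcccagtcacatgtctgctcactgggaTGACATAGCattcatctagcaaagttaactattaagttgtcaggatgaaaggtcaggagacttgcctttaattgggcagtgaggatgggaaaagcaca

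In Abcc4 the match GCGGGGTCA lies at -25 to -17 of the first start and TGACTCTGC at -23 to -15 of the second. In Abcc2 the match TGACATAGC lies at -98 to -90. The windows of Abcc5 and Abcc9 hold no such letters. The core stands in 10.2% of the 32851 promoter windows of this length, and by gene in 12.3% of the 16918 tested genes that have a window. The first Abcc4 window is GC-rich, at 72.0% against a median of 52.4% over all windows, and holds 35 CG pairs. It also has 3 matches to the Sp1 box GGGCGG (or CCGCCC), which 32.7% of windows hold. It has a pair of matches to the xenobiotic response element core GCGTG (or CACGC), which 28.2% hold, and 1 of the Sp1 matches, at -16 to -11, follows directly on the antioxidant core. The other motifs searched were the C/EBP-ATF element TGATGNAA and the nuclear receptor repeats DR4 and IR1, and none was found in the windows of the 4 genes. These matches describe letters in a window and were not tested as binding sites.

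The liver label was checked against 12 hepatocyte markers, whose mean log2 signal lay between 11.38 and 11.71 on all 15 arrays. By group it ranged from 11.42 to 11.59 in RYGB, 11.38 to 11.57 in Sham AL and 11.60 to 11.71 in BWm. All BWm arrays thus lay above all others in this mean, and its part in the results that follow was not tested. Array medians lay between 3.89 and 4.02. Sham AL replicate 4 stood apart: its mean was 8.70 over 8 adrenal cortex markers, against 2.90 to 3.22 on the other arrays, 8.93 over 6 adrenal medulla markers, against 3.66 to 4.06, and 8.81 over 9 adipocyte and brown fat markers, against 4.23 to 5.01. For the genes and counts named, the result without this array is given where it changes a call or a direction. Macrophage markers moved with the RYGB group: the mean over 12 markers ranged from 7.10 to 7.64 in RYGB, 6.82 to 7.40 in Sham AL and 6.81 to 7.33 in BWm, and its part in the results that follow was not tested. In whole liver, fewer cells of a type and less RNA per cell cannot be told apart.

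Abcc4 was higher after bypass than in both sham groups, and it was the member with the largest differences. The 6 RYGB arrays ran from 6.02 through a median of 7.0 to 7.68. The 5 Sham AL arrays read 4.78, 4.91, 5.46, 6.05 and 6.17, and the 4 BWm arrays read 5.41, 4.56, 4.95 and 4.57. All 6 RYGB arrays lay above all BWm arrays, with a gap of 0.61, and 5 of 6 lay above all Sham AL arrays. The exception was RYGB replicate 1, at 6.02, which fell below Sham AL replicates 4 and 5.

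The log2 difference of Abcc4 was 1.48 ± 0.28 (SE, 6 against 5 arrays), or 2.78-fold, for RYGB against Sham AL. It was 2.07 ± 0.30 (6 against 4 arrays), or 4.21-fold, for RYGB against BWm. BWm lay below Sham AL by a difference of -0.60 ± 0.31, which did not pass the threshold. The 3 comparisons share arrays pairwise, so they are not independent of each other. The sample descriptions carry an animal number, which is under 50 for 3 RYGB and 1 Sham AL arrays and above 60 for all others. What the number stands for is not stated. Among the arrays with a number above 60, the RYGB mean of Abcc4 was 7.31 (n = 3), against 5.65 in Sham AL (n = 4) and 4.87 in BWm (n = 4). The 3 RYGB arrays with a number under 50 averaged 6.59, and the 1 Sham AL array among them read 4.78. Abcc4 was thus higher in RYGB than in Sham AL within both ranges of numbers, though the lower range rests on 1 Sham AL array. That range held no BWm array, so it gives no comparison with BWm.

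**Figure D1:**
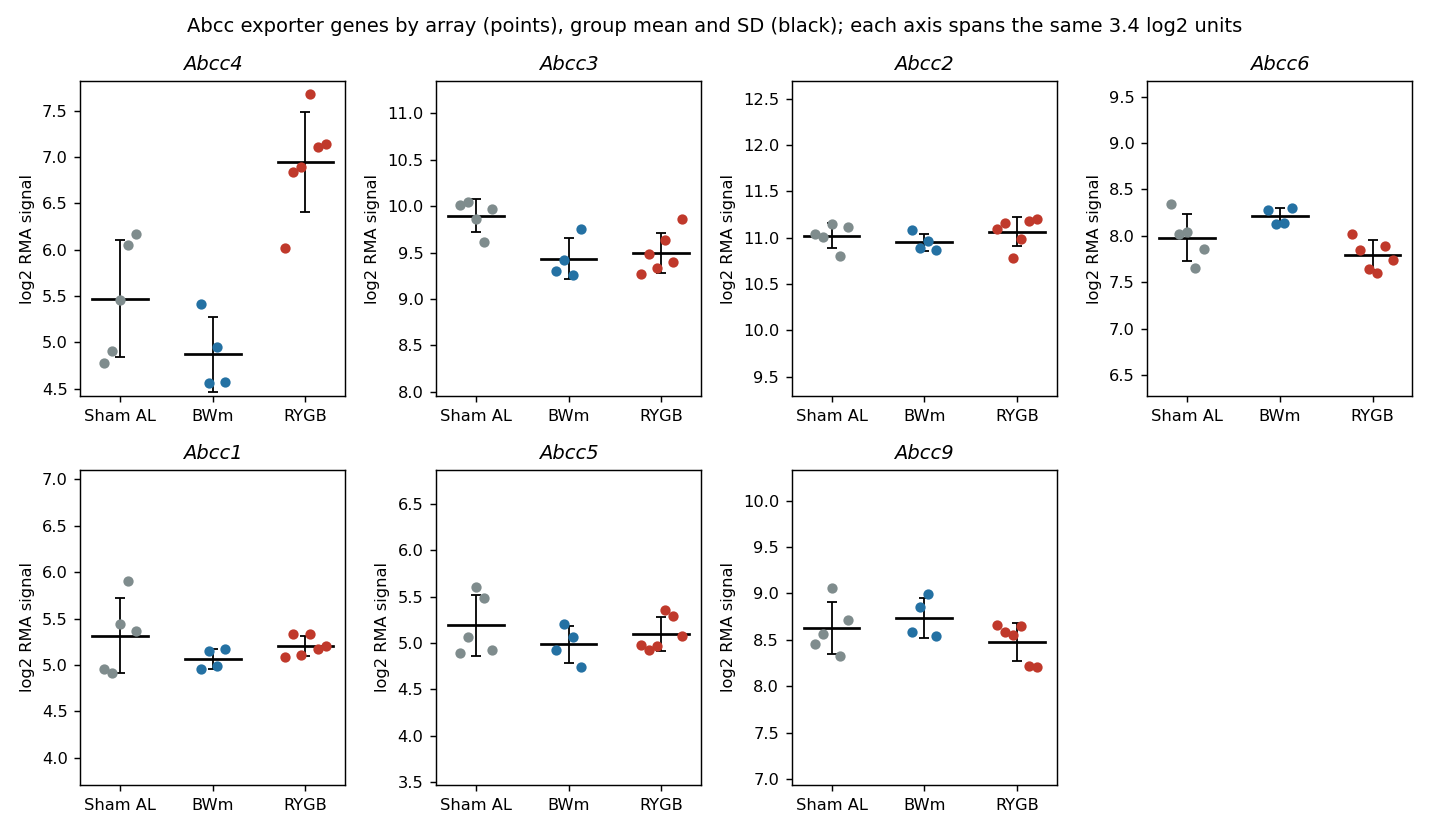
Log2 signal of the 7 Abcc genes on every array (points) in Sham AL (n = 5), BWm (n = 4) and RYGB (n = 6), with the group mean and SD in black; every panel spans the same number of log2 units, so distances can be compared but not heights between genes. The RYGB points of Abcc4 run from 6.02 to 7.68, above all BWm points, while the groups of Abcc1, Abcc2, Abcc5 and Abcc9 overlap.

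Abcc3, the other sinusoidal exporter, did not follow Abcc4. Its RYGB arrays ran from 9.27 through 9.44 to 9.86, the Sham AL arrays read 10.01, 10.04, 9.86, 9.61 and 9.97, and the BWm arrays read 9.30, 9.42, 9.26 and 9.75. Sham AL was thus the high group, and 4 of 6 RYGB and 3 of 4 BWm arrays lay below all of its values. The difference was -0.40 ± 0.12 for RYGB against Sham AL, -0.46 ± 0.14 for BWm against Sham AL and 0.06 ± 0.13 for RYGB against BWm. None of these passed the threshold in the fit of all 15 arrays. The difference between BWm and Sham AL did pass without Sham AL replicate 4, at -0.54, or without BWm replicate 4, at -0.57.

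Abcc2, the canalicular pump for bilirubin glucuronides and glutathione conjugates, had its group means within 0.12 of each other. They were 11.07 ± 0.16 in RYGB (SD, n = 6), 11.02 ± 0.14 in Sham AL (n = 5) and 10.95 ± 0.09 in BWm (n = 4). The ranges of all groups overlapped. Without Sham AL replicate 4 the difference between RYGB and Sham AL was -0.01 in place of 0.04.

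Abcc6 ran against Abcc4. Its RYGB arrays ran from 7.60 through 7.80 to 8.02, the Sham AL arrays read 8.34, 8.02, 8.04, 7.65 and 7.86, and the BWm arrays read 8.28, 8.13, 8.14 and 8.30. BWm was the high group: all 6 RYGB arrays lay below all 4 BWm arrays, with a gap of 0.11, while RYGB and Sham AL overlapped. The difference was -0.42 ± 0.12, or 1.34-fold lower, for RYGB against BWm, -0.19 ± 0.12 for RYGB against Sham AL and 0.23 ± 0.13 for BWm against Sham AL. The call against BWm held without RYGB replicate 1, Sham AL replicate 1 or Sham AL replicate 4, and ended when any 1 of the other 12 arrays was left out, with differences from -0.45 to -0.39. Over the 15 arrays Abcc6 had a Pearson r of -0.84 with Abcc4 (Spearman -0.84, and -0.81 for Pearson without RYGB replicate 4 and BWm replicate 2, the arrays farthest from the Abcc4 median). The r of -0.84 ranked 22147 of 22179 genes. With group means subtracted r was -0.71, and the arrays share their group, RNA and normalization.

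Abcc1 and Abcc5, pumps of many cell types known to carry leukotriene C4 and cyclic nucleotides respectively, had overlapping groups throughout. Abcc1 averaged 5.20 ± 0.11 in RYGB, 5.31 ± 0.41 in Sham AL and 5.07 ± 0.11 in BWm. Its highest value, 5.90, belonged to Sham AL replicate 4, and without that array the difference between RYGB and Sham AL turned from -0.11 to 0.04. Abcc5 averaged 5.10 ± 0.18, 5.19 ± 0.33 and 4.99 ± 0.20, in the same order. Its 2 highest arrays were Sham AL replicates 3 and 4, at 5.60 and 5.49, and without Sham AL replicate 3 the difference between RYGB and Sham AL was 0.01 in place of -0.09.

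Abcc9 averaged 8.48 ± 0.21 in RYGB, 8.63 ± 0.28 in Sham AL and 8.74 ± 0.22 in BWm, with all groups overlapping. The lowest arrays were RYGB replicates 5 and 6, at 8.22 and 8.21, and the highest was Sham AL replicate 3, at 9.06. The difference was -0.27 ± 0.15 for RYGB against BWm and -0.15 ± 0.14 for RYGB against Sham AL. Its potassium channel partners Kcnj8 and Kcnj11 and the related receptor Abcc8, 3 genes in all, had 0 calls by limma in each comparison, 0 of them at an unadjusted p under 0.05.

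Counted at an adjusted p of 0.05 in the limma fit, 1 of the 7 genes (Abcc4) was called for RYGB against Sham AL, where 1.38% of all genes were. For RYGB against BWm 2 of 7 (Abcc4 higher, Abcc6 lower) were called, where 6.36% of all genes were, and for BWm against Sham AL 0 of 7 (1, Abcc3, at an unadjusted p under 0.05), where 2.84% were. The one-way analysis of variance of the study's methods, rerun here at its p under 0.05 and 1.5-fold, picked 1, 1 and 0 of the 7. With a Benjamini-Hochberg step added here, it called 0, 2 and 0. The median difference over all genes was 0.00, 0.00 and -0.01 in these comparisons. The arrays of the groups did not overlap for 0 of 7 genes in RYGB against Sham AL, where 2.39% of all genes had separate groups. In RYGB against BWm they were separate for 2 of 7, where 7.61% were (4.71% higher, as Abcc4, and 2.91% lower, as Abcc6), and in BWm against Sham AL for 0 of 7, where 6.85% were. Since the 7 genes were listed with these values known, nothing is read from the shares.

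**Figure D2:**
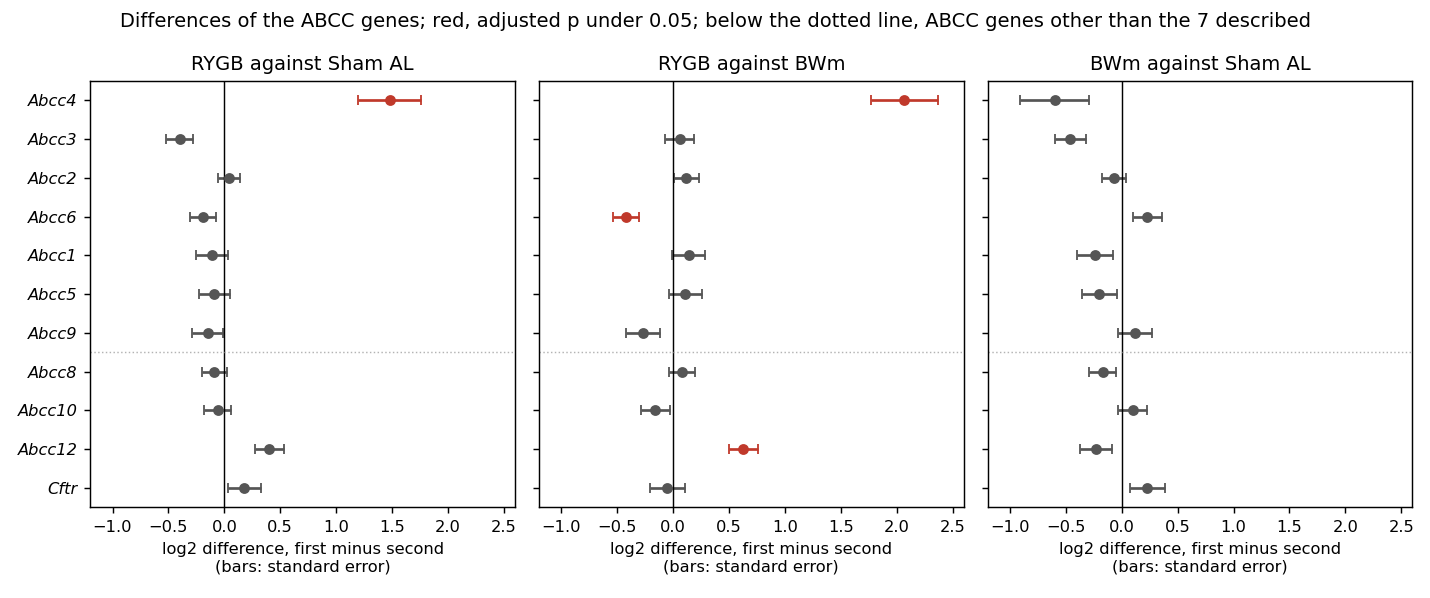
Log2 difference of each ABCC gene (points) with its standard error (bars) in the 3 comparisons, first group minus second; red marks an adjusted p under 0.05 in the limma fit over 22180 genes, and genes below the dotted line are ABCC genes other than the 7. Abcc4 stands at 1.48 and 2.07 in the RYGB comparisons, whereas Abcc3 is at -0.40 and -0.46 in the comparisons with Sham AL.

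The other ABCC genes measured were Abcc8, Abcc10, Abcc12 and Cftr. Abcc12, a member with little known function, rose in RYGB against BWm by 0.63 ± 0.13 (limma, adjusted p = 0.00669), and its RYGB arrays, from 4.22 to 4.70, lay above all BWm arrays, from 3.61 to 3.92. These levels are near the arrays' median signal. Against Sham AL its difference was 0.40 ± 0.13 (adjusted p = 0.144), with 5 of 6 RYGB arrays above all Sham AL arrays. The promoter window of Abcc12 holds none of the motifs searched. Abcc10 (-0.16 ± 0.13 against BWm), Abcc8 (0.08 ± 0.12) and Cftr (-0.05 ± 0.16) passed in no comparison, and the Abcc10 window holds the antioxidant core match TGACCTGGC.

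The genes whose signal most resembled that of Abcc4 were ranked by Pearson r over the 15 arrays, among 22179 genes, with predicted genes named Gm or Rik left out. They were Cbr3 (r = 0.95), a carbonyl reductase, Pmm1 (0.95), a phosphomannomutase, S100g (0.95), the calcium-binding protein calbindin-D9k, Septin11 (0.94), a cytoskeletal GTPase, Sqstm1 (0.94), the autophagy receptor p62, Nucb2 (0.93), the nesfatin precursor, Creld2 (0.93), an endoplasmic reticulum stress protein, and Pgm2 (0.93), a phosphoglucomutase. With group means subtracted their r lay between 0.67 for Creld2 and 0.86 for Cbr3. Without RYGB replicate 4 and BWm replicate 2 it lay between 0.91 and 0.96. These are descriptions of arrays that share groups, and genes picked as the top of a ranking. Cbr3 is also on the list of NRF2 targets described below.

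S100g differed most among these 8, with RYGB arrays of 6.99, 8.21, 7.91, 8.33, 7.38 and 8.28. Its Sham AL arrays read 4.46, 4.75, 5.94, 5.52 and 5.74, and its BWm arrays read 4.99, 4.46, 4.13 and 4.31. RYGB was separate from both sham groups, by 5.93-fold and 10.4-fold. In RYGB replicate 1 both S100g and Cbr3 had their lowest RYGB value, at 6.99 and 4.37, as Abcc4 did. None of the other 6 Abcc genes came near this ranking: r with Abcc4 was 0.34 for Abcc1, 0.30 for Abcc2, 0.24 for Abcc5, -0.17 for Abcc3 and -0.43 for Abcc9, beside the -0.84 of Abcc6.

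**Figure D3:**
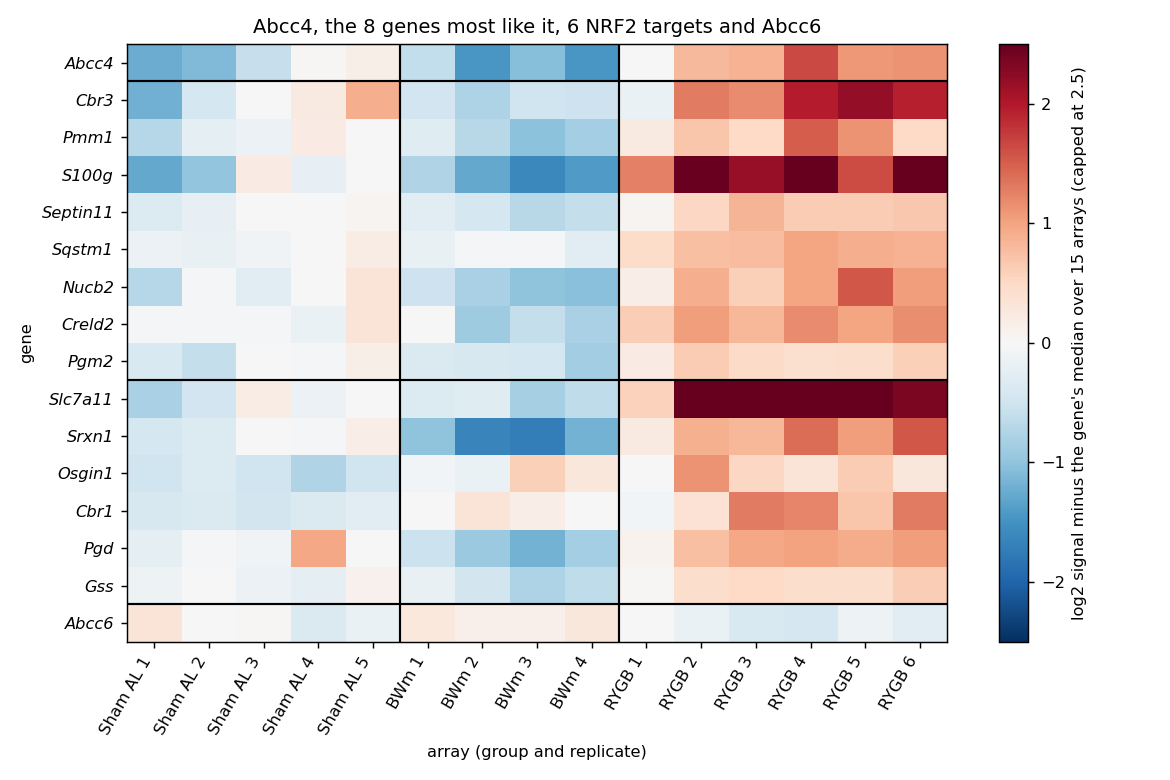
Log2 signal minus the gene's median over 15 arrays (colour, capped at 2.5) for Abcc4, the 8 genes with the highest r with it, 6 further NRF2 target genes and Abcc6, with arrays in columns by group. Cbr3, among the 8, is also on the list of NRF2 targets. The 6 were picked from targets called higher in at least 1 RYGB comparison, so they do not stand for the whole list. RYGB replicate 1 is paler than RYGB replicates 2 to 6 for Abcc4 (6.02 against 6.84 to 7.68) and for Slc7a11 (4.29 against 6.08 to 6.98), and the colours of Abcc6 run the other way.

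Of 24 genes listed as NRF2 targets, which make and regenerate glutathione, reduce quinones and supply NADPH, 21 were measured. In RYGB against Sham AL 7 rose and 0 fell, where 0.938% of all genes were called higher and 0.442% lower, and the median difference was 0.49. In RYGB against BWm 14 rose and 0 fell, where 4.02% and 2.34% were called, with a median of 0.68. In BWm against Sham AL 0 rose and 5 fell, where 1.53% and 1.30% were called, with a median of -0.43. The counts were the same without Sham AL replicate 4. Leaving out any 1 of RYGB replicates 3, 4 and 6 and Sham AL replicates 2 and 3 lowered the count for RYGB against Sham AL to 4, leaving out RYGB replicate 1 raised it to 11, and leaving out BWm replicate 2 lowered that for BWm against Sham AL to 2. The study's analysis of variance was rerun here for each pair of groups. At p under 0.05 and 1.5-fold, its threshold in the methods, it picked 8, 12 and 7 of the 21 targets in either direction. With a Benjamini-Hochberg step added here, it called 54, 833 and 90 of all genes and 0, 10 and 0 of the 21 targets.

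Slc7a11, the cystine importer that feeds glutathione synthesis, differed most on this list in both RYGB comparisons. Its RYGB arrays read 4.29, 6.78, 6.98, 6.51, 6.42 and 6.08, while Sham AL ran from 2.90 to 3.91 and BWm from 2.89 to 3.41. All 6 RYGB arrays lay above both sham groups, RYGB replicate 1 least so. The sham means, 3.47 and 3.18, were below the arrays' median signal and were not shown to be above background, so no order is read between them and the sizes of the differences are uncertain. The fitted difference was 2.71 ± 0.35 against Sham AL (limma, adjusted p = 0.000548) and 2.99 ± 0.37 against BWm (adjusted p = 0.00012).

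Srxn1, sulfiredoxin, which repairs oxidised peroxiredoxins, was graded over the 3 groups. RYGB ran from 7.62 to 8.94, Sham AL from 6.96 to 7.55 and BWm from 5.67 to 6.38, with no overlap. It rose in RYGB by 1.12 ± 0.20 against Sham AL (limma, adjusted p = 0.00773) and by 2.38 ± 0.21 against BWm (adjusted p = 1.26e-05), and it fell in BWm against Sham AL by 1.27 on the log2 scale (SE 0.22, adjusted p = 0.00399). These calls held when each array was left out in turn.

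Other targets took different courses. Osgin1 and Cbr1 rose against Sham AL, by 1.00 ± 0.17 (limma, adjusted p = 0.00506) and 1.18 ± 0.20 (adjusted p = 0.00502), but had differences of 0.32 ± 0.18 and 0.68 ± 0.21 against BWm (adjusted p = 0.387 and 0.0699). Pgd, of the pentose phosphate pathway, and Gss, glutathione synthetase, rose against BWm, by 1.67 ± 0.22 (adjusted p = 0.00017) and 0.92 ± 0.13 (adjusted p = 0.000278). Against Sham AL they differed by 0.67 ± 0.21 (adjusted p = 0.135) and 0.49 ± 0.12 (adjusted p = 0.0535). Pgd did pass there with Sham AL replicate 4 left out (0.88, adjusted p = 0.00902) or RYGB replicate 1 left out, and Gss passed with RYGB replicate 1, BWm replicate 1 or BWm replicate 3 left out (adjusted p down to 0.0128). Cbr1 passed against BWm with RYGB replicate 1 or 2 left out. With the animal number as a block, Cbr1 passed against BWm (limma, adjusted p = 0.0296) and Gss against Sham AL (adjusted p = 0.0399). Me1, malic enzyme, had a difference of -0.79 ± 0.20 in RYGB against Sham AL (adjusted p = 0.0616), which passed with Sham AL replicate 3 or 5 left out, and was lower in BWm than in Sham AL by -0.98 ± 0.22 (adjusted p = 0.0215), a call that ended without Sham AL replicate 2 or BWm replicate 1 or 2.

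As a group, the mean of the 21 targets, each centred on its own mean, was -0.15 on RYGB replicate 1 and 0.41 to 0.67 on the other RYGB arrays, -0.21 to 0.05 in Sham AL and -0.55 to -0.38 in BWm. The RYGB array lowest in Abcc4 was thus also the lowest in this mean, and lay within the Sham AL range. The median r of the 21 targets with Abcc4 was 0.81, against -0.01 over all genes, and 0.51 with group means subtracted. The 21 include Cbr3, the gene ranked first by r, and the list was chosen with earlier results of these data known. These r values are therefore a description, and a shared cause was not tested. The RNA of Nfe2l2, which encodes NRF2 itself and is named here outside the naming rule, had differences of 0.12 ± 0.12 against Sham AL and 0.16 ± 0.13 against BWm (adjusted p = 0.746 and 0.58). Among the 17 targets with a promoter window, 3 (17.6%) hold the antioxidant core, beside 12.3% of all genes. Their sites, with 16 bases on either side, are shown for comparison with the Abcc4 windows above.
Gclm, chr3:122245407-122245447, plus strand: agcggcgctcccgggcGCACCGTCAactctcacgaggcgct
Txnrd1, chr10:82859098-82859138, plus strand: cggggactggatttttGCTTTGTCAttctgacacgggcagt
Ugdh, chr5:65435950-65435990, minus strand: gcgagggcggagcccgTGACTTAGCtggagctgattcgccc
Ugdh, chr5:65435912-65435952, minus strand: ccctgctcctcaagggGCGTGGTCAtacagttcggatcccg

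The windows of Slc7a11 and Srxn1, which had the largest differences on this list against BWm, hold no core match. Gclm, which does, had a difference of 0.33 ± 0.11 in RYGB against Sham AL (limma, adjusted p = 0.162) and 0.18 ± 0.11 against BWm (adjusted p = 0.447).

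**Figure D4:**
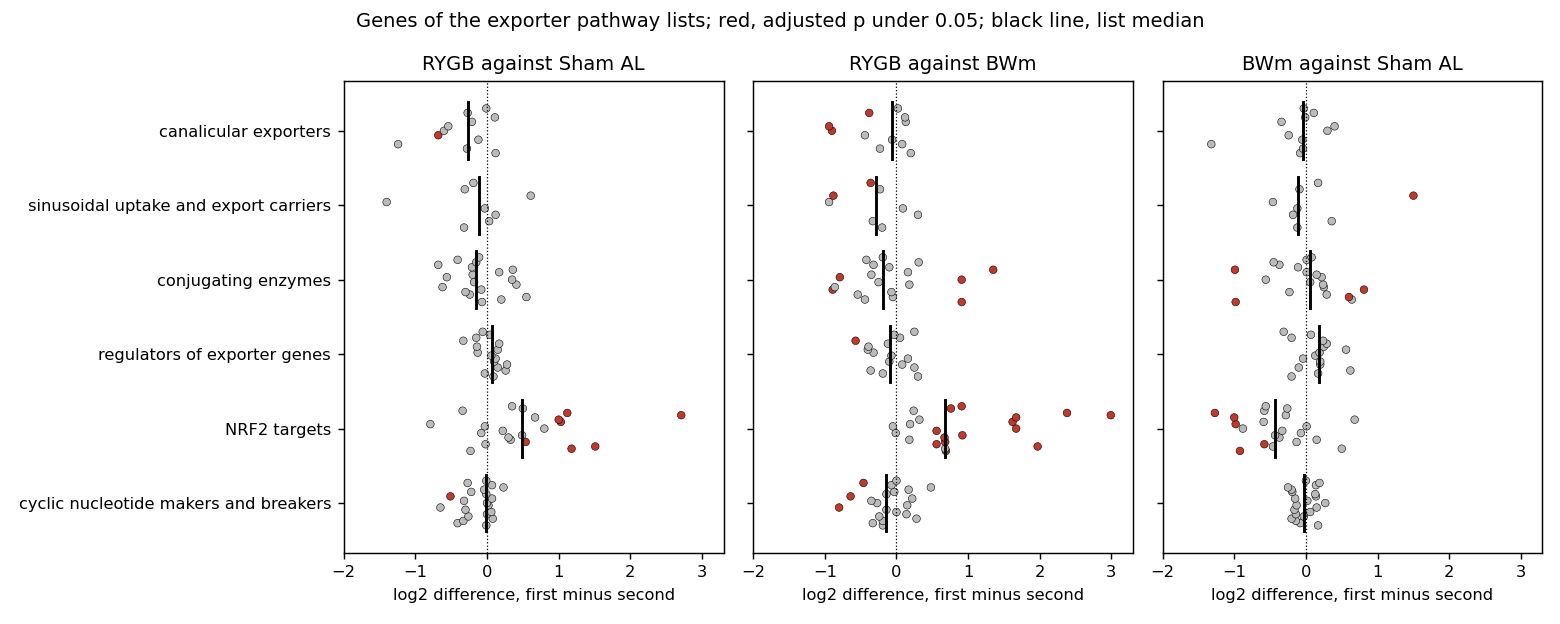
Log2 differences (first group minus second) of the genes on 6 lists around the Abcc exporters, 1 point per gene, in the 3 comparisons; red marks an adjusted p under 0.05 in the limma fit and black lines are list medians. The NRF2 targets have medians of 0.49, 0.68 and -0.43, while the medians of the other lists lie between -0.28 and 0.18.

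The calls among the canalicular exporters other than Abcc2 were all falls, although differences reached up to 0.12, 0.2 and 0.4 in the 3 comparisons. Of 11 genes, 1 fell in RYGB against Sham AL, where 0.442% of all genes were called lower. In RYGB against BWm 3 fell, where 2.34% of all genes were called lower. In BWm against Sham AL 0 passed by limma (0 also at an unadjusted p under 0.05), where 2.84% of all genes did. The medians were -0.27, -0.06 and -0.04. Abcg8 and Abcg5, which form the canalicular cholesterol exporter, fell against BWm by 0.94 and 0.90 on the log2 scale (SE 0.22 each; limma, adjusted p = 0.0131 and 0.0164), and Slc47a1, an organic cation exporter, by 0.38 (SE 0.10, adjusted p = 0.0317). All 3 calls ended without BWm replicate 4, that of Abcg5 also without BWm replicate 1, and that of Slc47a1 also without BWm replicate 3 or any 1 of RYGB replicates 3 to 6 (adjusted p up to 0.108). Abcg2, the sulfate conjugate and urate exporter, fell against Sham AL by 0.68 (SE 0.16, adjusted p = 0.0441), with all 6 RYGB arrays, from 6.77 to 7.57, below all Sham AL arrays, from 7.60 to 8.25. That call ended when any 1 of 10 arrays was left out (RYGB replicates 3 to 6, Sham AL replicates 1, 2, 3 and 5, and BWm replicates 1 and 4), with adjusted p up to 0.121. Abcb1b reached 9.17 on Sham AL replicate 4 and at most 3.94 on the other Sham AL arrays.

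Among 8 sinusoidal uptake and export carriers 0 passed in RYGB against Sham AL by limma (4 at an unadjusted p under 0.05), beside 1.38% of all genes. Slco1a1 had the largest difference there, -1.40 ± 0.65 (limma, adjusted p = 0.37). In RYGB against BWm 2 fell, beside 2.34% of all genes, and in BWm against Sham AL 1 rose, beside 1.53%. Slco1a4, an organic anion uptake carrier, was highest in BWm, from 8.70 to 9.00, against 6.68 to 8.01 in Sham AL and 7.34 to 8.52 in RYGB. It rose in BWm against Sham AL by 1.50 ± 0.26 (limma, adjusted p = 0.00357), and fell in RYGB against BWm by 0.88 (SE 0.25, adjusted p = 0.0387). That fall lost its call without RYGB replicate 2, 4 or 5 or any 1 BWm array. Slco2b1 fell against BWm by 0.36 (SE 0.10, adjusted p = 0.0452), a call that ended when any 1 of 11 arrays was left out (all but Sham AL replicates 1, 4 and 5 and RYGB replicate 3).

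The enzymes that make the conjugates these pumps carry split by group. Of 19, 0 passed in RYGB against Sham AL by limma (6 at an unadjusted p under 0.05), beside 1.38% of all genes. In RYGB against BWm 3 rose and 2 fell, beside 4.02% and 2.34% of all genes. In BWm against Sham AL 2 rose and 2 fell, beside 1.53% and 1.3%. In RYGB against Sham AL, 1 fell without Sham AL replicate 4, and 1 rose and 1 fell without RYGB replicate 1 or without RYGB replicate 2. The count that rose in BWm against Sham AL dropped to 1 when any 1 of 10 arrays was left out (RYGB replicates 4 and 5, Sham AL replicates 1 to 4 and all BWm arrays), each of which ended the call of Sult1a1 (adjusted p up to 0.185). Ugt2b35, a glucuronosyltransferase, read 9.11 to 9.42 in RYGB, 8.60 to 9.07 in Sham AL and 7.49 to 8.32 in BWm, which do not overlap. It rose in RYGB against BWm by 1.35 ± 0.15 (adjusted p = 5.28e-05) and fell in BWm against Sham AL by 0.99 (SE 0.16, adjusted p = 0.00232).

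Papss1, which makes the sulfate donor, likewise had its low group in BWm, at 4.93 to 5.75 against 6.13 to 6.35 in RYGB and 6.01 to 6.66 in Sham AL, and differed by 0.91 ± 0.15 in RYGB against BWm (limma, adjusted p = 0.000926). Ugdh, which makes the glucuronic acid donor, rose by 0.91 ± 0.15 in RYGB against BWm (adjusted p = 0.00113). Sult1d1, a sulfotransferase, ran the other way: it was highest in BWm and fell in RYGB against BWm by 0.89 (SE 0.15, adjusted p = 0.00147). Ugt2b genes are related in sequence, so their probes may share signal, which was not measured.

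Of 16 regulators of exporter genes, among them nuclear receptors, 1 passed by limma, in RYGB against BWm (1, 6 and 3 had an unadjusted p under 0.05 in the 3 comparisons). Over all genes, 6.36% passed in RYGB against BWm. Ppara, the fatty acid receptor, fell there by 0.57 (SE 0.12; limma, adjusted p = 0.00834), with no overlap between the groups. Nr1i2, the pregnane X receptor, had differences of -0.40 ± 0.17 in RYGB against BWm (adjusted p = 0.192) and 0.56 ± 0.17 in BWm against Sham AL (adjusted p = 0.101). Both passed with the animal number as a block (adjusted p = 0.0377 and 0.0327), and the one between BWm and Sham AL also without Sham AL replicate 1 (adjusted p = 0.0457). In that comparison the count of regulators that rose went from 0 to 2 without Sham AL replicate 1 and to 1 without RYGB replicate 5. Hnf4a had the largest difference of the list there, 0.62, and passed without either of these arrays (limma, adjusted p down to 0.0282). It also passed with the animal number as a block (adjusted p = 0.0368). Of 10 membrane anchors that hold such pumps in place, 0 passed in any comparison by limma, beside 1.38%, 6.36% and 2.84% of all genes. At an unadjusted p under 0.05 they numbered 1, 4 and 2, and no share of all genes is given for that threshold. With the animal number as a block, 1 fell in RYGB against BWm.

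Genes that handle substrates of these pumps were also read. Of 12 eicosanoid genes, 1 rose in RYGB against Sham AL, where 0.938% of all genes were called higher. It was Slco2a1, the prostaglandin uptake carrier, which rose by 0.93 ± 0.17 (limma, adjusted p = 0.0108). Its RYGB arrays, from 9.03 to 9.75, were above 4 of 5 Sham AL arrays, and the exception was Sham AL replicate 1, at 9.36. In RYGB against BWm 0 of the 12 passed by limma (2 at an unadjusted p under 0.05), beside 6.36% of all genes. Slco2a1 passed there without RYGB replicate 5 or Sham AL replicate 1, and Ltc4s, leukotriene C4 synthase, had a difference of -0.52 ± 0.20 (adjusted p = 0.164) that passed without Sham AL replicate 4 (adjusted p = 0.0478). Of 21 makers and breakers of cyclic nucleotides, which Abcc4 and Abcc5 can export, 1 fell in RYGB against Sham AL and 3 in RYGB against BWm. Over all genes, 0.442% and 2.34% were called lower in these comparisons. Pde3b, the insulin-responsive phosphodiesterase, fell by 0.51 (SE 0.10, adjusted p = 0.018) and 0.64 (SE 0.11, adjusted p = 0.00145), and its RYGB arrays, from 8.27 to 8.85, lay below all Sham AL arrays, from 8.93 to 9.16, and all BWm arrays, from 9.05 to 9.24. Leaving out either RYGB replicate 4 or Sham AL replicate 2 ended the call against Sham AL.

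Around Abcc6, 11 of 12 genes listed for ATP release, nucleotide breakdown, pyrophosphate and mineralisation were measured. Enpp1 was listed but not matched, so nothing is read about it. Nt5e, the ectoenzyme that makes adenosine from AMP, rose in RYGB by 1.28 ± 0.27 against Sham AL (limma, adjusted p = 0.0205) and by 1.11 ± 0.29 against BWm (adjusted p = 0.0247). The first call was lost when any 1 of RYGB replicates 4 and 6 and Sham AL replicates 2 and 5 was left out, and the other when any 1 of RYGB replicate 4 and BWm replicates 1, 3 and 4 was. Slc29a1, the nucleoside carrier that clears adenosine, shared with Abcc6 a BWm group above RYGB: it read 8.78 to 9.03 in BWm, 8.20 to 8.42 in RYGB and 8.19 to 8.47 in Sham AL. It fell in RYGB against BWm by 0.59 (SE 0.09, adjusted p = 0.000749) and rose in BWm against Sham AL by 0.57 ± 0.10 (adjusted p = 0.00348). Entpd5, a nucleoside diphosphatase of the endoplasmic reticulum, rose against BWm by 0.53 ± 0.12 (adjusted p = 0.00948).

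Of 12 macrophage markers, 1 rose in RYGB against Sham AL (Adgre1, 0.64 ± 0.14, limma, adjusted p = 0.0252) and 1 rose against BWm (Cd68, 0.72 ± 0.17, adjusted p = 0.016). Over all genes, 0.938% and 4.02% were called higher in these comparisons. All 12 differences were above 0 in both, with medians of 0.36 and 0.35. With the animal number as a block, 2 of the 12 rose in each of these comparisons. The Adgre1 call rested on each of Sham AL replicates 1, 2, 4 and 5 and RYGB replicates 2 and 4, and that of Cd68 on each of BWm replicates 3 and 4. The 16 stellate and mural cell markers, cells in which Abcc9 is known to be expressed, had 0 calls by limma in each comparison (0, 1 and 1 at an unadjusted p under 0.05). Their medians were -0.05, 0.03 and -0.07. The 12 hepatocyte markers had 0, 0 and 1 calls by limma (1, 3 and 3 at an unadjusted p under 0.05). Over all genes, 1.38%, 6.36% and 2.84% were called in the 3 comparisons. The hepatocyte call was Cps1, the urea cycle enzyme, at 0.44 ± 0.10 in BWm against Sham AL (limma, adjusted p = 0.0229). It rested on each of Sham AL replicates 2 and 3 and BWm replicates 2 and 3.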

How the data were processed

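Per the series' design text and the submitters' processing notes, the authors ran the RMA algorithm of Affymetrix Expression Console (1.4.1.46) over all 15 arrays, so the deposited table holds log2 signals. Of its 41345 transcript clusters, 23521 had 1 symbol and were kept, 1814 had several and 16010 none; 23328 matched an Entrez number in RefSeq. The cluster with the highest mean over the arrays was taken for genes with more than 1 (1082 genes), and no dim gene was removed from the 22180 tested. Background signal was not measured. No source used here gives the probes' genome build. Precision is limited by how few arrays a group has.

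A single limma fit (3.58.1 in R 4.3.3) over the 15 arrays gave 3 two-sided contrasts with 12 residual and 5.85 prior degrees of freedom. P-values were adjusted by Benjamini-Hochberg over 22180 genes, and a gene was called at an adjusted p under 0.05. On simulated data for RYGB against Sham AL it called 100.0% of 66 genes changed 4-fold and 62.7% of 67 changed 1.5-fold. The 1.5-fold share was 49.3% between RYGB and BWm and 53.7% between the sham groups. The simulated noise was independent between arrays, had the same spread in every group and held no array like Sham AL replicate 4. The shares can therefore differ for these data. A log2 difference of RMA values can understate the true change.

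The 7 genes and the 21 lists (243 genes, 224 measured) were chosen with earlier results of these data known. Named genes are the 7, the other ABCC genes, the 8 most like Abcc4, and for each list and comparison up to 4 called genes with the smallest p, or, where none passed, up to 2 with the largest difference; Nfe2l2, Gclm and Kcnj11 were added. The marker lists of cholangiocytes, endothelium, muscle, pancreas, adrenal cortex and adrenal medulla had 0 calls by limma in every comparison (at an unadjusted p under 0.05, 0, 6, 0, 4, 2 and 0 over the 3 together). Of the fat markers 1, Cidea, was called lower in RYGB and in BWm than in Sham AL. Over all genes, 1.38%, 6.36% and 2.84% were called in RYGB against Sham AL, RYGB against BWm and BWm against Sham AL. With the animal number as a block, 3 of 8 endothelial markers were called lower in RYGB than in BWm and 1 lower than in Sham AL, and 1 was higher in BWm than in Sham AL. Without Sham AL replicate 4, the adrenal cortex marker Cyp21a1 was called lower in RYGB than in Sham AL (adjusted p = 0.023). The Cidea call ended in RYGB when Sham AL replicate 2 or any 1 of RYGB replicates 2, 3, 4 and 6 was left out, with differences of -3.10 to -1.85 over all arrays left out in turn. It ended in BWm when Sham AL replicate 2 or any 1 of BWm replicates 1 to 3 was left out (-3.17 to -1.92). Alternatives were a filter on dim genes, array weights and medians, blocks, the authors' one-way analysis of variance, and leaving out each array.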

Additional observations from a re-analysis of the deposited data

Results flagged for a closer look

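In 189 groups of arrays, each 1 gene in 1 group, a gap test (Dixon's, at the 95% level) picked out 16 in which 1 array stood far from the rest. Chance alone picks about 1 in 20. None was a group of the 7 Abcc genes. The adrenal and fat markers on which Sham AL replicate 4 stood apart, such as Chga (10.34, Sham AL median 4.25), are not among the 16. The count therefore does not reflect the full departure of that array. RYGB replicate 1 was far below the other RYGB arrays for 3 NRF2 targets: Slc7a11 at 4.29 (others 6.08 to 6.98), Pgd at 8.12 (others 8.80 to 9.07) and Gss at 8.06 (others 8.47 to 8.67). It was also the RYGB array lowest in Abcc4.

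Sham AL replicate 4 was far above the other Sham AL arrays for Abcb1b at 9.17 (others 3.45 to 3.94) and for Pgd at 9.01 (others 7.80 to 8.04). Sham AL replicate 1 was the highest for Slco2a1 at 9.36 (others 8.28 to 8.54) and for Ephx1 at 10.43 (others 10.19 to 10.25). RYGB replicate 5 was the lowest for Slco2a1 at 9.03 and for Hnf4a at 9.92, and RYGB replicate 3 the highest for Sult1d1 at 9.96.

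In BWm, replicate 1 was the lowest for Kcnj8 at 5.23 (others 5.59 to 5.66) and for Ppara at 9.00 (others 9.13 to 9.15). Replicate 2 was the highest for Sult1a1 at 10.64 and the lowest for Sult2a8 at 10.10 (others 10.81 to 10.94). Replicate 3 was the highest for Slc9a3r2 at 7.61, and replicate 4 the lowest for Pgm2 at 5.23 (others 5.67 to 5.74).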

How the results depend on the processing

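Over 25 alternatives, the Abcc4 difference ranged from 1.30 to 1.71 for RYGB against Sham AL and from 1.92 to 2.46 for RYGB against BWm. Its call ended in 1 alternative, the authors' analysis of variance with Benjamini-Hochberg added here, in RYGB against Sham AL (adjusted p = 0.13). The Abcc6 call against BWm ended in 14 of 25, among them array medians subtracted (adjusted p = 0.0558), with adjusted p up to 0.121. Directions turned, in differences never called, for Abcc1 (0.04) and Abcc2 (-0.01) without Sham AL replicate 4, for Abcc5 without Sham AL replicate 3 (0.01) and with the animal number as a block (0.00), all in RYGB against Sham AL, and for Abcc3 in RYGB against BWm without RYGB replicate 6 (-0.01).

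The replicate numbers were not shown to pair the mice, and weak correlations cannot exclude a pairing. Deviations of the 13 same-numbered pairs of arrays correlated between -0.17 and 0.19, 4 of them over 0.1. Those of the 61 other-numbered pairs lay between -0.268 and 0.194, 13 of them over 0.1. With the replicate block, 174, 903 and 325 genes were called in place of 306 (RYGB against Sham AL), 1411 (RYGB against BWm) and 629 (BWm against Sham AL), the Abcc members called were 1, 1 and 0 in place of 1, 2 and 0, and the Abcc3 difference in RYGB against BWm was -0.02. Leaving out 1 array at a time moved Abcc1 from -0.21 to 0.04, Abcc2 from -0.01 to 0.10 and Abcc5 from -0.17 to 0.01 in RYGB against Sham AL, and Abcc3 from -0.01 to 0.17 in RYGB against BWm. It gave 144 to 398, 930 to 1544 and 284 to 646 genes, and 1 to 1, 1 to 2 and 0 to 1 members. The authors' analysis of variance, rerun here at p under 0.05 and 1.5-fold, called 857 genes and 1 member in RYGB against BWm. With Benjamini-Hochberg added here it called 54, 833 and 90 genes and, in RYGB against Sham AL, 0 members (1 in the limma fit). Array medians subtracted gave 1 member in RYGB against BWm. The filter on dim genes (mean of at least 4) and array weights each gave 1 member, Abcc3, in BWm against Sham AL (adjusted p = 0.0476 and 0.0365). The cause of these shifts was not tested. Signal over background was not measured, so dim genes such as Abcc12 and Cftr cannot be told from background.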
